A study of Mus musculus with 8 samples.

Results

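Genes of cilium assembly and motility were examined in mice lacking the histone deacetylase Hdac3 (KO) and in wild-type mice (WT). The set holds every gene symbol of the deposited tables that begins with Ift, Bbs, Rsph, Dnaic, Tctn or Tekt and a number, or with Dync2, together with Dynlrb2, Foxj1, Ccdc153 and Tmem212. These were 44 of the 20215 genes listed in any of the 4 expression tables, of which 17 belong to intraflagellar transport, 8 to the BBSome group, 15 to the motile axoneme, 3 to the transition zone and 1 is the regulator Foxj1. No symbol beginning with Dnah was analysed here.

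RNA was sequenced from 8 libraries of C57BL/6 mice. Neurospheres, free-floating balls of cells that form in cultures of neural progenitors, were grown for 4 days from the cerebrum of E16.5 embryos. They comprised 2 Hdac3 KO libraries (KO 7 and KO 8) and 2 WT libraries (WT 5 and WT 6). The dorsal cerebral cortex was taken at postnatal day 0 and comprised 2 Hdac3 KO libraries (KO 1 and KO 2) and 2 WT libraries (WT 1 and WT 2). In cortex the KO titles carry the name Emx1, a Cre driver known from the dorsal forebrain lineage, so cells of other lineages in the dissected tissue need not lack the enzyme. The sources used here name no driver for the neurosphere KO. The design text counts 2 brains per genotype and tissue, and the p-values below measure the spread between these pairs of samples.

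A cilium is a slender projection built around microtubules. Intraflagellar transport trains carry its parts outward with kinesin and back with the dynein-2 motor, the BBSome loads membrane proteins onto those trains, and the transition zone gates the base. Most neural progenitors carry a single non-motile primary cilium, through which hedgehog signals pass. Motile cilia, found in the brain on ependymal and choroid plexus cells, add dynein arms, radial spokes and tektins, and the transcription factor Foxj1 drives many of these genes together with RFX factors, which bind a palindromic element called the X-box.

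The X-box was looked for because it is the shared control element known for ciliary genes. The search string was GTTNCC, a spacer of 0 to 3 bases and NGNAAC, on both strands of the RefSeq promoter window (build GRCm38.p6, 250 bases before to 50 bases after the start). A window was held for 37 of the 44 genes, and Dync2li1, Foxj1, Ift122, Ift80, Ift81, Rsph1 and Rsph4a had none. The string was present in 10 of the 37 (27.0%), against 579 of all 27025 genes with a window searched (2.14%). Each match is shown on the strand of its gene with the matching bases in capitals, and Tekt2 holds its match in the windows of 2 start sites.
Dynlrb2: cctgcctgGTTGCCTAGCAACgggggaag
Ift57: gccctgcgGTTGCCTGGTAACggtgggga
Dnaic1: gcctgtcgGTTGCTGGGTAACcgcgtcag
Dnaic2: cggccaggGTTGCTAGGCAACtggtaaac
Rsph3b: aacctcggGTTGCTCGGCAACcgatgggg
Tekt2: agggggcgGTTGCTCGGCAACcagagccg
Tekt4: tatacaatGTTCCTTAGGCAACcaggaacc
Bbs7: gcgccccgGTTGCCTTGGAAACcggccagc
Tctn1: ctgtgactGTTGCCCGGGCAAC
Tctn3: tcccagcgGTTGCCAGGTAACgggaacca
The matches of Dynlrb2 and Ift57 began 51 and 60 bases before the start, and those of Dnaic2 and Dnaic1 began 33 and 19 bases before it. By role, the string was found in 5 of 13 motile axoneme genes, 2 of 13 intraflagellar transport genes, 1 of 8 BBSome genes and 2 of 3 transition zone genes. A match is a string of letters and not a measured binding site.

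Hdac3 itself averaged 26.97 ± 0.23 FPKM in KO cortex and 47.12 ± 1.41 FPKM in WT cortex, where FPKM is a fragment count corrected for transcript length and library size (SD, n = 2 each). It averaged 19.3 ± 1.73 FPKM in KO neurospheres and 31.5 ± 4.06 FPKM in WT neurospheres (SD, n = 2 each), which did not pass the test (−0.68 on the log2 scale, adjusted p = 0.104, limma-trend). In the authors' deposited count comparison the log2 fold change of Hdac3 was −0.29 in neurospheres (adjusted p = 0.437, DESeq2). It was −0.52 in cortex (adjusted p = 3.83e-07, DESeq2) in that authors' deposited comparison. The width of the deposited confidence intervals implied a median of 348 to 440 fragments per gene in the neurosphere libraries and 582 to 711 in the cortex libraries. The deposited FPKM tables held no WT value below 0.999 in neurospheres or 1.0 in cortex, whereas KO values reached 0, so a gene weak in WT could not enter them. They listed 30 of the 44 genes in neurospheres and 34 in cortex. Dnaic1, Dnaic2, Rsph4a, Rsph6a, Tekt2, Tekt3, Tekt4, Tekt5 and Tmem212 were in neither table, and Bbs12, Ccdc153, Dynlrb2, Rsph1 and Tekt1 were in that of cortex only.

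In KO cortex, the radial spoke genes Rsph1 and Rsph9, the dynein light chain Dynlrb2 and the regulator Foxj1 had the most negative log2 fold changes among the cilium genes tested. The tektin Tekt1, 3 BBSome genes and 2 other transport genes also fell, and most of the intraflagellar transport genes did not pass the test. Of the 33 genes tested, 10 fell and 0 rose at an adjusted p under 0.05 (limma-trend on log2(FPKM + 1), Benjamini-Hochberg adjustment over all 11986 genes). Over all genes, 17.7% fell and 4.79% rose, so the share of cilium genes that fell, 30.3%, stood beside a background that was itself large. The median log2 fold change of the 33 genes was −0.15, against −0.10 for all genes. A gene had to reach about 1 FPKM in WT to be listed, with no such floor in KO. A gene under that level in KO was thus listed only if it was higher in WT, and these counts cover the listed genes only. In bulk tissue, fewer cells of a type and less RNA per cell cannot be told apart.

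Foxj1, the forkhead factor that switches on motile cilium genes, had 3.49 and 2.26 FPKM in KO cortex, against 6.57 and 4.56 FPKM in WT cortex. Both KO libraries lay below both WT libraries. The log2 fold change was −0.76 (SE 0.17, adjusted p = 0.0169, limma-trend), which placed it 99th from the most negative of 11986 genes. The call was lost without WT 1 (adjusted p = 0.0751, limma-trend) and without KO 2 (0.114), and it held without WT 2 (0.0113) and without KO 1 (0.0211).

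Rsph1, a protein of the radial spoke head, had 1.44 and 0.780 FPKM in KO cortex, against 4.74 and 3.47 FPKM in WT cortex. These values rested on about 47 and 22 fragments in KO and 113 and 88 in WT. The groups were well apart, with KO at 0.27 times the WT mean, a log2 fold change of −1.28 (SE 0.16) and the 19th most negative place. Rsph9, another radial spoke head protein, was more abundant, with 14.6 and 14.2 FPKM in KO cortex and 20.8 and 24.5 FPKM in WT cortex. Its log2 fold change was −0.61 (SE 0.09, adjusted p = 0.00285, limma-trend) and it rested on at least 308 fragments per library.

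Tekt1, a tektin filament protein inside the microtubule doublets, had 1.93 and 1.27 FPKM in KO cortex and 2.58 and 2.34 FPKM in WT cortex. Its log2 fold change of −0.42 (adjusted p = 0.0451, limma-trend) was lost when any library other than KO 1 was left out, with an adjusted p of 0.256 without KO 2, 0.152 without WT 1 and 0.0793 without WT 2. Rsph3a and Rsph3b, near-identical radial spoke genes whose reads may be split between them, lay closer together. Rsph3a had 10.2 and 8.87 FPKM in KO cortex and 10.7 and 10.6 FPKM in WT cortex, and Rsph3b had 8.89 and 7.98 FPKM in KO cortex and 9.37 and 8.41 FPKM in WT cortex. Neither passed the test, with adjusted p of 0.24 and 0.616 (limma-trend).

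Ccdc153, known as a marker of ciliated ependymal cells, had 0.298 and 0.0769 FPKM in KO cortex and 1.41 and 1.31 FPKM in WT cortex. Its mean of 0.774 FPKM lay under the minimum of 1 FPKM, so it was not tested. It was listed through its WT values alone and was thus bound to lie lower in KO, so these FPKM values are a description. About 9 fragments stood behind the value in KO 1 and 31 behind each WT value.

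Dynlrb2, a dynein light chain best known from motile ciliated cells, is grouped by its name with the transport motors. It had 1.60 and 0.943 FPKM in KO cortex, against 5.06 and 3.31 FPKM in WT cortex, on about 18 and 9 fragments in KO and 40 and 29 in WT. KO stood at 0.304 times WT, and the gene took the 25th most negative place with a log2 fold change of −1.18 (SE 0.18). It carries the X-box string printed above, and its whole promoter window is given as the example among the genes that fell (chr8:116504765-116505064, plus strand, GRCm38.p6, capitals as above).
Dynlrb2 promoter: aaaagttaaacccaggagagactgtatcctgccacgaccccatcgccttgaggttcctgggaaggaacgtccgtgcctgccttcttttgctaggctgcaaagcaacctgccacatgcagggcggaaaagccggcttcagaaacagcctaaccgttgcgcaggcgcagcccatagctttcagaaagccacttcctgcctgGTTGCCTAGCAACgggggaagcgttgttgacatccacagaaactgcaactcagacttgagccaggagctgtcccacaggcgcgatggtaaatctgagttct
The string was present in 2 of the 8 genes with a window that fell in KO cortex (25.0%). It was present in 4 of the 19 tested genes with a window that did not pass (21.1%). Rsph1 and Foxj1, which also fell, had no window. Counts this small cannot show whether the string sorts the genes by their response.

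**Figure D1:**
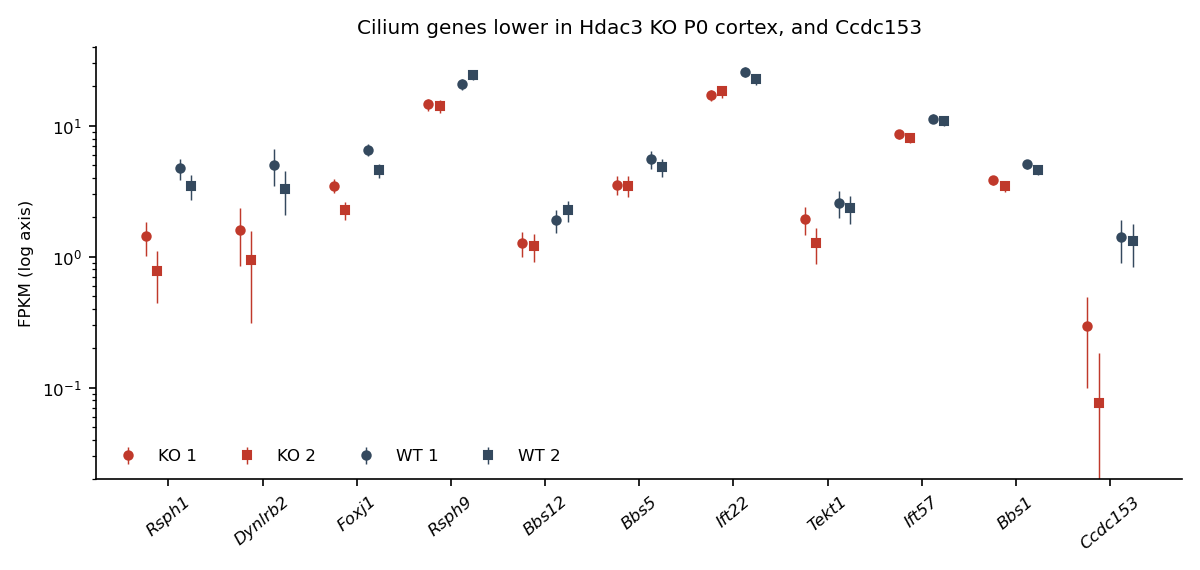
FPKM on a log axis in each P0 cortex library for the 10 cilium genes that fell in KO and for Ccdc153, with KO 1 and KO 2 in red left of WT 1 and WT 2 in blue; bars are the deposited confidence bounds, and the lower bound of Ccdc153 in KO 2 is 0. Every gene shown has both KO values below both WT values, as do 50.2% of all genes tested, and the 10 were chosen because they fell. Rsph1, Dynlrb2 and Ccdc153 show the widest gaps, and each has a KO value under the level of about 1 FPKM that only WT had to reach.

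Intraflagellar transport genes other than Dynlrb2 moved little in cortex. Of 16 tested, 2 fell (12.5%, against 17.7% of all genes). The median log2 fold change of the 16 was −0.06, slightly above the −0.10 of all genes. After rescaling the libraries to a common median it was 0.04. Ift22, a small GTPase of the anterograde train, had 17.2 and 18.3 FPKM in KO cortex and 25.8 and 22.6 FPKM in WT cortex, a log2 fold change of −0.43 (adjusted p = 0.00974, limma-trend) that had an adjusted p of 0.0705 without KO 1. Ift57, another subunit of the anterograde train, had 8.66 and 8.11 FPKM in KO cortex and 11.4 and 10.8 FPKM in WT cortex.

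For Ift57 the change was −0.37 on the log2 scale (adjusted p = 0.0154, limma-trend), with an adjusted p of 0.0551 without WT 1, 0.0546 without KO 1 and 0.111 without KO 2. Ift88, a core train subunit whose loss is known to abolish cilia, had 5.33 and 5.37 FPKM in KO cortex and 5.33 and 5.52 FPKM in WT cortex. Those groups overlapped, and the log2 fold change was −0.02 (SE 0.09). Dync2h1, the heavy chain of the return motor, averaged 1.77 ± 0.06 FPKM in KO cortex and 2.11 ± 0.07 FPKM in WT cortex (SD, n = 2 each), which did not pass (−0.16 on the log2 scale, adjusted p = 0.226, limma-trend). The other 12 tested had log2 fold changes between −0.21 (Dync2li1) and 0.12 (Ift43).

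Among 7 BBSome genes tested in cortex, 3 fell (42.9%, against 17.7% of all genes). Bbs12, a chaperonin-like factor needed to assemble the complex, had 1.27 and 1.20 FPKM in KO cortex and 1.90 and 2.27 FPKM in WT cortex (log2 fold change −0.46, adjusted p = 0.0142, limma-trend). Bbs5, a subunit of the complex, had 3.54 and 3.48 FPKM in KO cortex and 5.59 and 4.82 FPKM in WT cortex (−0.46, adjusted p = 0.0132, limma-trend). Bbs1, another subunit, had 3.83 and 3.45 FPKM in KO cortex and 5.09 and 4.56 FPKM in WT cortex (−0.33, adjusted p = 0.0407, limma-trend). The calls of these 3 genes depended on single libraries: Bbs1 lost its call whichever library was left out, with adjusted p from 0.0552 to 0.211, and also after rescaling (adjusted p = 0.0954). Bbs12 kept its call only without WT 1, and Bbs5 only without WT 2, with adjusted p up to 0.0769 and 0.0768 otherwise. Bbs2 and Bbs4 had log2 fold changes of 0.01 and 0.09 and did not pass the test.

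The tectonic genes of the transition zone did not pass the test in cortex. Tctn2 came nearest, with 3.13 and 2.92 FPKM in KO cortex and 4.08 and 3.76 FPKM in WT cortex (log2 fold change −0.29, adjusted p = 0.0545, limma-trend). Tctn3 had a log2 fold change of −0.12 and Tctn1 one of 0.05.

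The lower of the KO libraries was mostly the same one. KO 2 was the lowest of the 4 libraries for all 5 tested motile axoneme genes and for Foxj1, and for 21 of the 33 cilium genes (63.6%), against 44.8% of all genes tested and 59.6% of those that fell. Rsph1, Dynlrb2 and Rsph9 were the genes whose calls held whichever of the 4 libraries was left out, with adjusted p of at most 0.012, 0.0265 and 0.0278. In KO 2, Rsph1 and Dynlrb2 had 0.780 and 0.943 FPKM, under the level of about 1 FPKM that only WT had to reach. Their listing thus rested on WT, which favours genes that are lower in KO. Over the 33 genes, both KO libraries lay below both WT libraries in 18 (54.5%), close to the 50.2% of all genes, so this count says little about the cilium genes. After rescaling to a common median, 8 of the 33 fell, against 7.72% of all genes that fell and 9.56% that rose; Bbs1 and Tekt1 were lost. When the spread was instead estimated over all 8 libraries, 0 of the 29 genes present in both tables passed in cortex (3 at an unadjusted p under 0.05, lowest adjusted p 0.33, limma-trend), a fit in which 6 of 10945 genes passed and from which Rsph1, Dynlrb2, Tekt1 and Bbs12 were absent.

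**Figure D2:**
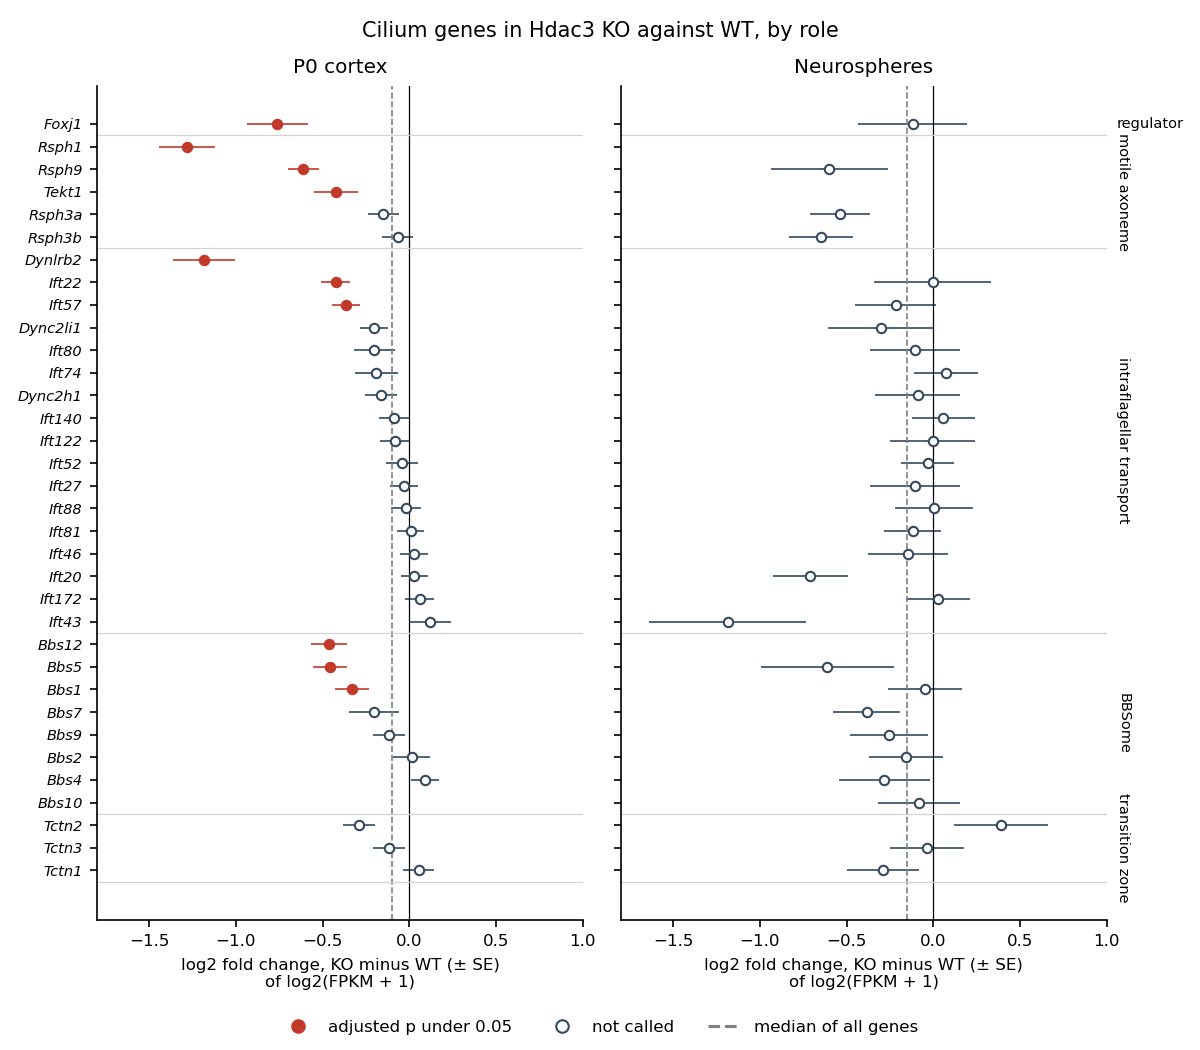
Log2 fold change of log2(FPKM + 1), KO minus WT, with its standard error for each tested cilium gene, grouped by role, in P0 cortex (left) and neurospheres (right), with filled red points for an adjusted p under 0.05 and a dashed line at the median of all genes. In cortex Rsph1 and Dynlrb2 lie near −1.2 while most intraflagellar transport genes lie near 0; in neurospheres 0 genes are filled and the bars are wider.

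The authors' deposited table of a count comparison, made with DESeq2, is not restricted on WT in this way and lists 42 of the 44 genes in cortex. The authors' deposited table gave an adjusted p for 38, of which 5 were lower in KO (13.2%) and 0 higher, while 5.55% of all its genes were lower and 6.36% higher. The lower genes in the authors' deposited table were Rsph1 at −0.92 (SE 0.21, adjusted p = 0.000457, DESeq2), Ccdc153 at −0.69, Foxj1 at −0.67, Dynlrb2 at −0.61 and Rsph9 at −0.49, all genes of motile cilia. With a pseudocount of 0.1 FPKM, Rsph1 had −1.84 and Dynlrb2 −1.65 in the FPKM fit. The standard error in the authors' deposited table was small even at very low counts (0.07 for Tekt3, mean normalized count 1.33). Its fold changes of low genes may thus be understated, which was not tested. The motile gene Tekt1, which fell in the FPKM fit, was not called in the authors' deposited table (−0.31, adjusted p = 0.433, DESeq2). The BBSome genes and the transport genes other than Dynlrb2 that fell in the FPKM fit were not called there either. In the authors' deposited table Bbs12 had −0.44 (adjusted p = 0.16, DESeq2) and Bbs1 −0.30 (adjusted p = 0.0873, DESeq2). Ift22, listed there under its older symbol Rabl5, had −0.33 (adjusted p = 0.103, DESeq2) in the authors' deposited table.

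That authors' deposited table also covers motile genes too weak for the FPKM tables. All 15 motile axoneme genes were listed in cortex, 12 with a fold change below 0 and 3 above 0, with a median of −0.17, against 0.01 for all genes. Dnaic2, an intermediate chain of the outer dynein arm, had −0.56 (adjusted p = 0.0731, DESeq2), while its partner Dnaic1 had 0.11 (adjusted p = 0.838, DESeq2) in the authors' deposited table. Rsph4a, a radial spoke head protein, had −0.41 (adjusted p = 0.241, DESeq2) and Tekt2, a tektin, had 0.18 (adjusted p = 0.698, DESeq2) in the authors' deposited table. Tekt4 had −0.45 and Tmem212, known from ciliated ependymal cells, −0.17, both without an adjusted p. Their mean normalized counts in the authors' deposited table were 17.0 and 6.37. The 3 motile genes above 0 (Tekt2, Dnaic1 and Rsph3a) were not called, so these values do not settle whether every motile gene was lower.

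**Figure D3:**
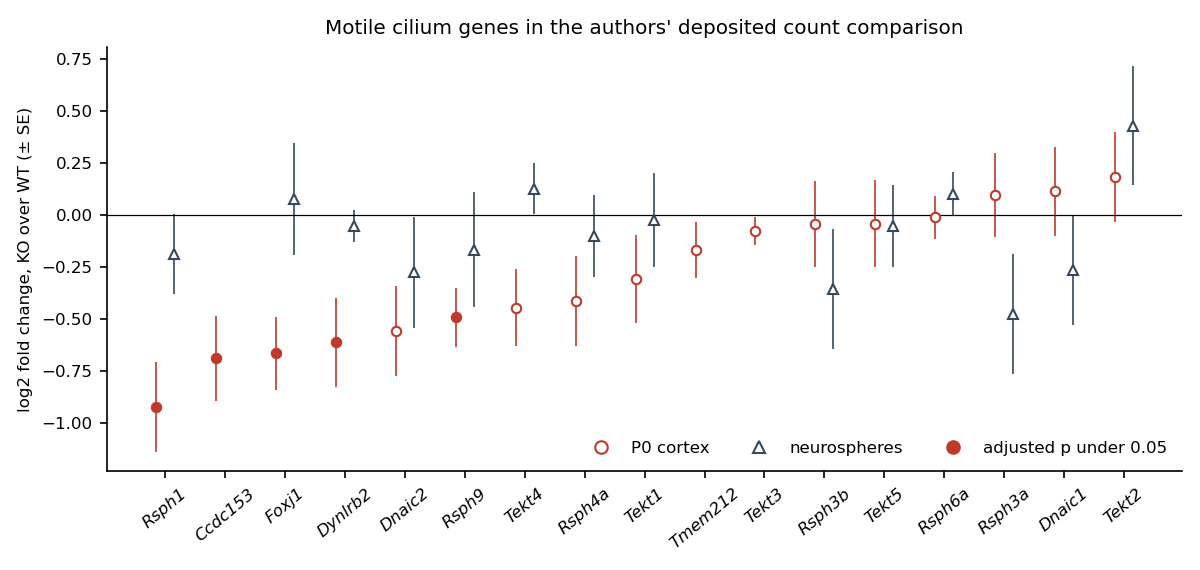
Log2 fold change, KO over WT, with its standard error from the authors' deposited count comparison for the 15 motile axoneme genes, Foxj1 and Dynlrb2, with circles for P0 cortex, triangles for neurospheres and filled symbols for an adjusted p under 0.05. Cortex values run from −0.92 for Rsph1 to 0.18 for Tekt2, and the neurosphere values have 0 filled symbols. Fold changes and standard errors of genes with low counts may be understated.

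Other motile axoneme genes were taken from a list of 60 and read in cortex. Of 27 tested, 15 fell and 1 rose (limma-trend, adjusted p under 0.05), against 17.7% of all genes that fell and 4.79% that rose. Their median log2 fold change was −0.34, against −0.10 for all genes. The 12 of them tested in both tissues had a cortex median of −0.10, against −0.10 for all genes tested in both. The rest of the 60 were not tested. A gene under about 1 FPKM in KO, such as Pifo, was listed through WT and only if it was higher there. The count and the median of the 27 thus include genes bound to lie lower in KO. Lrrc23 was under that level in KO 2. Pifo, a regulator of cilium disassembly, had 0.536 and 0.383 FPKM in KO cortex and 1.92 and 2.05 FPKM in WT cortex (log2 fold change −1.04, given as a description). Lrrc23, a radial spoke protein, had 1.45 and 0.716 FPKM in KO cortex and 3.49 and 2.70 FPKM in WT cortex (−0.99, adjusted p = 0.00509, limma-trend).

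Fam183b had a log2 fold change of −0.85 and Zmynd10, a factor that assembles dynein arms before they enter the cilium, one of −0.68. Gas8, a part of the nexin-dynein regulatory complex, was the 1 that rose, with 27.6 and 27.7 FPKM in KO cortex and 22.6 and 22.1 FPKM in WT cortex (0.29, adjusted p = 0.0163, limma-trend). After rescaling 10 fell and 1 rose, beside 7.72% and 9.56% of all genes. With 1 library left out, the number that fell was 9 without WT 1, 8 without WT 2, 11 without KO 1 and 5 without KO 2. The authors' deposited table had 7 lower and 1 higher of 45 with an adjusted p, beside 5.55% and 6.36% of all its genes.

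Genes of the non-motile cilium were read in the same way. Their place beside the motile genes depended on which genes were listed. The 12 other motile axoneme genes tested in both tissues had a cortex median of −0.10, and the 31 genes below, also tested in both, had −0.20. Of 31 transition zone and primary cilium genes tested in cortex, 10 fell and 0 rose (limma-trend), that is 32.3% against 17.7% of all genes that fell, with a median of −0.20, against −0.10 for all genes. B9d1, a transition zone protein, stood at −0.55 (log2 scale, adjusted p = 0.00865, limma-trend), Cc2d2a −0.49 and Ahi1 −0.40, all parts of the gate at the cilium base. That count depended on the scaling and on single libraries: 4 fell after rescaling (7.72% of all genes), and 5, 5, 3 and 2 fell without WT 1, WT 2, KO 1 and KO 2. Of 15 other transport genes, 3 fell (Kifap3 −0.32, Wdr35 −0.29 and Tctex1d2 −0.25), and 0 fell after rescaling; the share of 20.0% was near the 17.7% of all genes.

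Of 8 other Bardet-Biedl genes, 2 fell (25.0%, against 17.7% of all genes), namely Bbip1, a BBSome subunit, at −0.61 (adjusted p = 0.00203, limma-trend) and Arl6, the GTPase that recruits the BBSome to membranes, at −0.39. Among 14 regulators of multiciliated cells, E2f5 fell at −0.46 and Tfdp1 rose at 0.27, and the RFX factors tested (Rfx1, Rfx3, Rfx4, Rfx5 and Rfx7) did not pass. Of 10 hedgehog pathway genes, the coreceptors Boc (0.82, adjusted p = 0.00119, limma-trend) and Cdon (0.32) and the transcription factor Gli3 (0.37) rose, and 0 fell. Of 19 genes of cytoplasmic dynein and its partner dynactin, 3 rose (Dctn2 0.32, Dync1h1 0.27 and Dync1li2 0.23) and 2 fell (Dync1i1 −0.49 and Dynlrb1 −0.30). Beside these regulator, hedgehog and dynein counts, 4.79% of all genes tested in cortex rose and 17.7% fell.

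**Figure D4:**
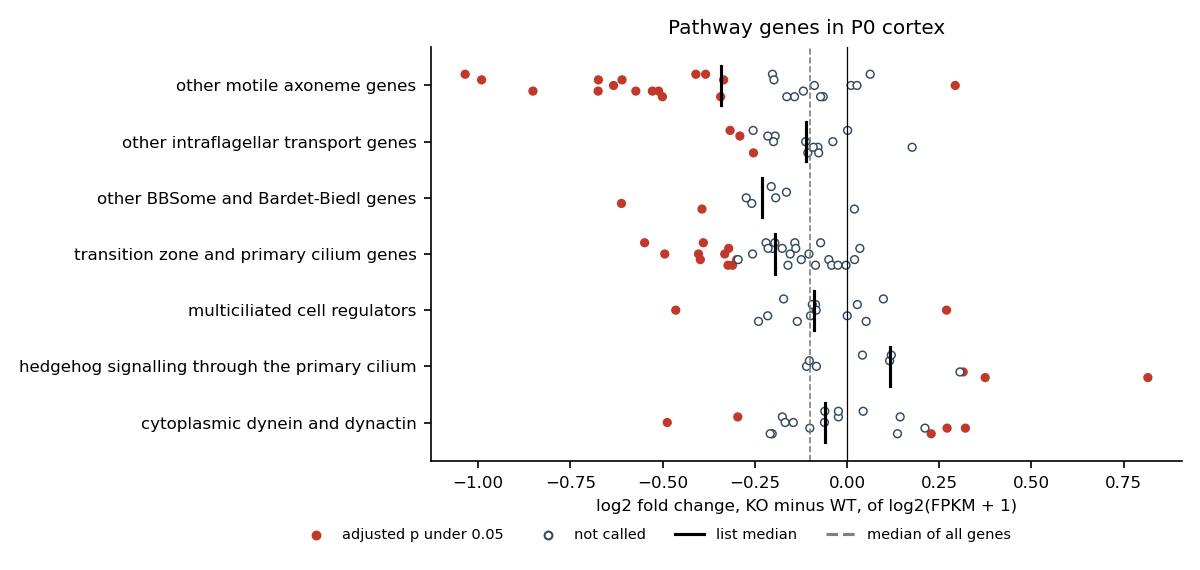
Log2 fold change of log2(FPKM + 1), KO minus WT, in P0 cortex for each tested gene of 7 lists, with filled red points for an adjusted p under 0.05, a black bar at each list's median and a dashed line at the median of all genes, −0.10. The list of other motile axoneme genes has its median at −0.34 and reaches −1.04 with Pifo, which was listed through its WT values. Hedgehog genes have their median at 0.12.

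Markers of cells that could carry these transcripts were read beside the cilium genes. Choroid plexus epithelium, a multiciliated tissue, was represented by 4 of 15 listed markers in the cortex fit, whose summed FPKM was 68.3 and 64.9 in KO and 75.4 and 66.1 in WT. Of these 4, Aqp1 rose (2.41 and 2.50 FPKM in KO, 1.65 and 1.80 FPKM in WT) and 0 fell. The authors' deposited table listed all 15, with 1 higher and 0 lower of 9 with an adjusted p, beside 6.36% and 5.55% of all its genes. The median mean normalized count of the 15 was 19.1. Of the 15, 11 had a log2 fold change below 0 and 4 above 0, with a median of −0.08, against 0.01 for all genes. Radial glia markers summed to 1591 and 1486 FPKM in KO cortex and 1103 and 1203 FPKM in WT cortex, with 5 of 10 up, led by Tnc (1.26) and Hopx (1.01). Astrocyte markers summed to 155 and 128 FPKM in KO cortex and 71.8 and 71.7 FPKM in WT cortex, with Gfap (2.09) and Aqp4 (0.51) up and Aldh1l1 (−0.33) down. Markers of excitatory neurons, which define the tissue, summed to 337 and 333 FPKM in KO cortex and 364 and 341 FPKM in WT cortex, with Neurod2 up and Neurod6 down of 6. Over all genes in the cortex fit, 4.79% rose and 17.7% fell. The part of these cell types in the cilium gene values was not tested.

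In neurospheres 0 of the 30 cilium genes tested rose or fell (limma-trend, 4 at an unadjusted p under 0.05, lowest adjusted p 0.141), and the authors' deposited table called 0 of 30. An unadjusted p under 0.05 was reached by 2288 of all 11408 genes (limma-trend). Over all genes 1.15% were called in the FPKM fit (0.219% higher and 0.929% lower in KO). Of all genes with an adjusted p, 5.81% were called in the authors' deposited table (3.5% higher and 2.31% lower in KO). The median log2 fold change of the 30 genes was −0.12, against −0.15 for all genes, and 0.02 after rescaling. Both KO libraries lay below both WT libraries in 9 of the 30, while this held for 38.3% of all genes.

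Foxj1 had 3.45 and 7.38 FPKM in KO neurospheres and 5.06 and 6.26 FPKM in WT neurospheres. The WT values lay between the KO values, and the log2 fold change was −0.12 (SE 0.32, adjusted p = 0.864, limma-trend). Rsph9 had 2.86 and 0.997 FPKM in KO neurospheres and 3.17 and 3.25 FPKM in WT neurospheres (−0.60, adjusted p = 0.365, limma-trend). Those groups did not overlap, and KO 8 lay farther from WT. Without KO 7 the change was −1.07 (adjusted p = 0.0328, limma-trend), in a fit where the lone KO library is assumed to vary like the WT pair.

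The radial spoke gene Rsph3a had 9.16 and 9.16 FPKM in KO neurospheres and 15.04 and 12.6 FPKM in WT neurospheres, and Rsph3b had 6.06 and 5.25 FPKM in KO neurospheres and 9.49 and 9.32 FPKM in WT neurospheres. Their log2 fold changes were −0.54 and −0.65 (adjusted p = 0.173 and 0.141, limma-trend), and with reads possibly shared they are not separate measurements. Ift20, a train subunit that also acts at the Golgi, had 11.9 and 8.84 FPKM in KO neurospheres and 20.3 and 14.96 FPKM in WT neurospheres (−0.71, adjusted p = 0.155, limma-trend). Ift43, a subunit of the retrograde train, had 2.40 and 8.42 FPKM in KO neurospheres and 14.7 and 9.60 FPKM in WT neurospheres.

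The Ift43 log2 fold change of −1.19 had a standard error of 0.45 (adjusted p = 0.213, limma-trend), and both KO libraries lay below both WT libraries, KO 7 by more. Without KO 8 it was −1.92 (adjusted p = 0.000261, limma-trend), with the same assumption for the lone KO library. Ift88 averaged 3.66 ± 0.64 FPKM in KO neurospheres and 3.62 ± 0.33 FPKM in WT neurospheres (SD, n = 2 each). Dync2h1 averaged 2.07 ± 0.18 FPKM in KO neurospheres and 2.29 ± 0.57 FPKM in WT neurospheres (SD, n = 2 each). With the spread estimated over all 8 libraries, 3 of 29 fell in neurospheres, namely Rsph3b (adjusted p = 0.016), Rsph3a (0.0268) and Ift20 (0.0324), by limma-trend.

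The pathway lists of the cilium, hedgehog and multiciliated regulators had 0 genes called in the neurosphere FPKM fit (limma-trend). At an unadjusted p under 0.05 there were 3 of 12 other motile axoneme genes, 6 of 31 transition zone and primary cilium genes, 2 of 15 other transport genes, 0 of 8 other Bardet-Biedl genes, 3 of 14 regulators and 1 of 10 hedgehog genes. The same held for 2288 of all 11408 genes tested (limma-trend), so these counts say little about the lists. Of the 17 regulators with an adjusted p in the authors' deposited table, 1 was higher in KO, beside 3.5% of all its genes. Radial glia markers summed to 871 and 1053 FPKM in KO neurospheres and 1656 and 1326 FPKM in WT neurospheres. Of the 10, 1 fell (Slc1a3), beside 0.929% of all genes, and 3 were lower in the authors' deposited table, beside 2.31%. Excitatory neuron markers summed to 356.9 and 310.4 FPKM in KO neurospheres and 358.6 and 321.5 FPKM in WT neurospheres. Of these 6, 1 rose, beside 0.219% of all genes, and 3 were higher in the authors' deposited table, beside 3.5%. The part of these cell types in the cilium gene values was not tested.

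The difference of the KO effect between the tissues was tested for the 29 genes in both tables. The test called 0 of 29 (limma-trend on all 8 libraries, 3 at an unadjusted p under 0.05), while 1.4% of all 10945 genes passed (0.42% with the more positive effect in neurospheres and 0.978% with the more negative). The effect on Foxj1 was −0.12 in neurospheres and −0.76 in cortex, a difference of 0.64 (SE 0.43, adjusted p = 0.485, limma-trend). Rsph9 had −0.60 and −0.61, a difference of 0.01 (SE 0.37). Rsph3b had the lowest adjusted p, with −0.65 in neurospheres and −0.07 in cortex, a difference of −0.58 (adjusted p = 0.146, limma-trend). Leaving out WT 6 gave a call for Ift20 (−0.95, adjusted p = 0.0455, limma-trend), and leaving out KO 8 gave one for Ift43 (−2.04, adjusted p = 0.0187, limma-trend). Rsph1, Dynlrb2, Tekt1 and Ccdc153, which were listed at FPKM level in cortex only, could not enter that test.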

How the data were processed

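Poly(A) RNA of 8 libraries (4 groups, n = 2 each) was sequenced with a stranded kit, per the labels' protocols. Per the submitters' processing notes, the authors worked on build mm9 with Bowtie and Cufflinks, STAR and featureCounts, Trim Galore and DESeq2; the sources used here give neither versions nor how strand entered the counting. FPKM values with confidence bounds were deposited, from 1 run per library. The authors' deposited comparison tables give a base mean signal (mean normalized count over libraries), a log2 fold change, its standard error as a score, and a p-value with its adjusted value; these appear only as the authors' values.

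Rows with a date for a symbol (20 in neurospheres, 21 in cortex), 0 and 2 rows with a failed status, and 20 and 29 repeated symbols were removed, which left 11496 and 12054 genes. The minimum for a test was an average of 1 FPKM over the libraries fitted, values entered as log2(FPKM + 1), and each tissue was fitted alone with limma-trend (limma 3.58.1, R 4.3.3, two-sided, Benjamini-Hochberg over all genes tested, threshold 0.05). Fold changes on this scale understate those of low genes. The difference between tissues was a contrast in a fit of all 8 libraries. The script was tested on simulated data. Fragments behind a value were inferred from the deposited bounds, read as 2 SD on each side; they cover counting error only. Total reads per library were not used here. Pearson correlations between replicates across genes were 0.967 for KO and 0.976 for WT neurospheres and 0.995 for KO and 0.996 for WT cortex; genes are not independent replicates.

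Named genes were the cilium genes called in either tissue, Foxj1, Dynlrb2, Rsph1, Ccdc153, Tmem212, Ift88 and Dync2h1 whether called or not, and up to 4 called genes per list and tissue with the largest change (1 of them is not reported here); the others (Rsph3a, Rsph3b, Ift20, Ift43, Tctn2 and further single genes) were named after their values were seen. The members and the gene lists were chosen with earlier results of these data known. Promoter windows came from RefSeq (GRCm38.p6), another build than mm9, and served only for sequence. Alternatives were a pseudocount of 0.1 FPKM, no minimum, rescaling to a common median, spread over all 8 libraries, each library left out, and a block on the label number.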

Additional observations from a re-analysis of the deposited data

How the results depend on the processing

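For 12 cilium genes (those called, Foxj1, Ift88 and Dync2h1), 123 single-gene alternatives kept the direction and side of the threshold, 16 changed sign without a call on either side, 28 kept the direction but lost the call, 1 gained it (Rsph9 in neurospheres, above) and 0 changed sign while called. The calls that Ift43, Rsph3a, Rsph3b and Ift20 gained in neurospheres, given above, are outside this tally. In cortex the count of cilium genes that fell was 10 as reported, 9 with a pseudocount of 0.1 FPKM, 11 with no minimum (Ccdc153, listed through WT alone, is the added gene), 8 after rescaling, 10 with the replicate block and 0 with the spread over all 8 libraries; it ranged from 5 to 7 with 1 library left out. Over all genes the cortex count of 2698 became 6 with the spread over all 8 libraries and ranged from 819 to 1894 with 1 library left out. The neurosphere count of 131 became 65 with a pseudocount of 0.1 FPKM (11 higher, 54 lower) and 1668 with the spread over all 8 libraries, and ranged from 0 to 671; its cilium genes numbered 3 with that spread and ranged from 0 to 1. The difference between tissues had 0 to 1 cilium genes called with 1 library left out.

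Rescaling moved the median of all genes from −0.10 to about 0 in cortex and from −0.15 in neurospheres, and the split of all calls from 574 higher and 2124 lower to 1145 higher and 925 lower in cortex, and from 25 and 106 to 52 and 78 in neurospheres. The median of the cilium genes became −0.0438 in cortex and 0.0188 in neurospheres. With 1 library left out it ranged from −0.185 to −0.0766 in cortex and from −0.19 to −0.05 in neurospheres. The deviations of KO 1 and WT 1 correlated at −0.096 and those of KO 1 and WT 2 at 0.096, so the label numbers 1 and 2 were not taken as pairs; the block on them gave 2524 calls over all genes and called the same 10 cilium genes. The neurosphere labels share no numbers, so no paired analysis was possible because of that there. A fit without 1 library assumes that the lone library of that group varies like the others. The causes of these changes were not tested. With 2 libraries a group, low genes such as Dynlrb2 rest on few fragments and small changes of the transport genes may pass unseen.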
